A study of Arabidopsis thaliana with 6 samples.

Results

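The genes described here are 10 members of the major latex protein-like family of Arabidopsis thaliana, taken by gene identifier from a table of 33557 genes. They are MLP328 and MLP329 on chromosome 2, MLP28, MLP31, MLP34, AT1G70880, MLP43 and MLP423 on chromosome 1, and AT4G23670 and AT4G23680 on chromosome 4. RNA was taken from seedlings of the accession Landsberg erecta (Ler), wild type or carrying the phyA-1 mutation, after 4 days in darkness and 3 hours of far-red light. Each genotype had 3 libraries of polyadenylated RNA, described by the labels as independent biological replicates. The labels say no more of the phyA-1 allele, and no dark-kept seedlings are among the samples. Phytochrome A is the photoreceptor through which dark-grown seedlings respond to far-red light. PHYA itself had 167 FPKM in wild type and 16.0 in phyA-1.

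Major latex proteins take their name from the latex of the opium poppy, where the first of them was found. They belong to the Bet v 1 superfamily, small proteins whose fold encloses a hydrophobic cavity that can hold a ligand, and which also contains the pathogenesis-related proteins of class 10 and the PYR/PYL receptors of abscisic acid. Arabidopsis MLP328 and MLP329 are also called ZCE1 and ZCE2, after their rise on treatment with cis-cinnamic acid, and the gene annotation credits MLP328 with promoting vegetative growth and delaying flowering. MLP43 and MLP423 are known in Arabidopsis from work on drought and abscisic acid responses.

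By fold, MLP328 rose the most of the 10, with 25.4 FPKM in wild type against 271 in phyA-1, while in FPKM itself the rise of MLP34, from 170 to 679, was larger. FPKM is the number of fragments scaled to transcript length and to all mapped fragments, and each value is the authors' pooled value of a genotype, with no spread between libraries. MLP34, AT1G70880, MLP329 and MLP43 rose as well, MLP423 and AT4G23680 fell, and MLP28, MLP31 and AT4G23670 were not called. Rose and fell are used of genes that the authors' deposited table calls, at a q-value up to 0.05, with phyA-1 above or below wild type. That is 5 higher, 2 lower and 3 not called, beside 8.61% of all 22892 tested genes called higher and 8.54% called lower. The group was chosen by family name with the pooled FPKM values of this same comparison, the rise of MLP328 among them, already known, so these counts describe the members and carry no test of the family. All 10 were tested by the authors, and no filter on low values was applied to them.

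**Figure D1:**
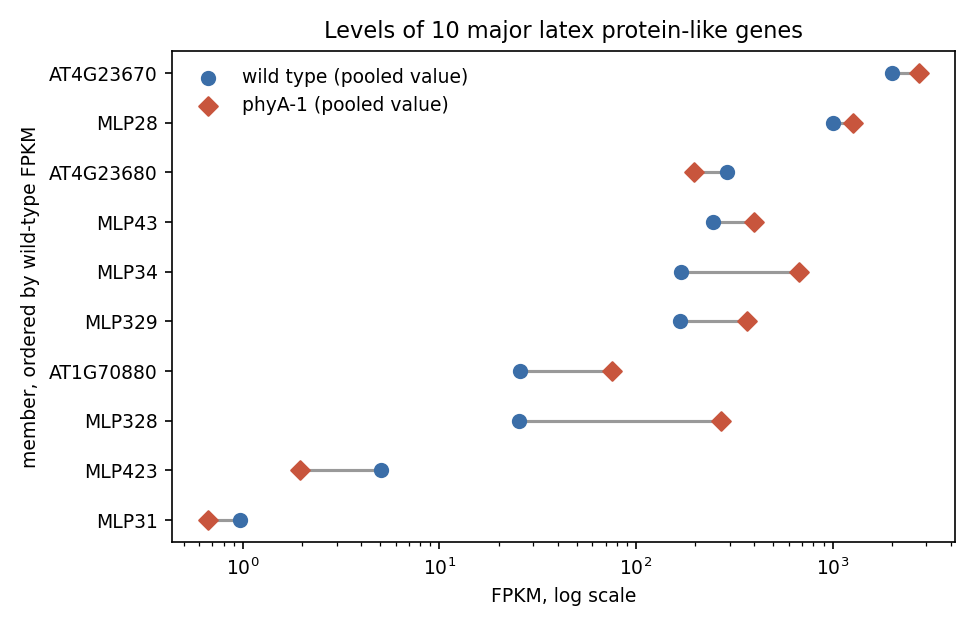
Pooled FPKM of each of the 10 members (horizontal axis, log scale) in wild type (circles) and phyA-1 (diamonds), with a line joining the values of a gene. MLP328 has the longest line, from 25.4 to 271 FPKM, and the line of AT4G23670 lies farthest to the right, from 1999 to 2760 FPKM.

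The coding sequences show how far the copies can be told apart by short reads. MLP328 and MLP329 have coding sequences of equal length, 456 bases, with 47 differing bases, an identity of 89.7%. Their first coding exons, 187 bases each, differ at 13 bases. They are shown 5′ to 3′ from the RefSeq annotation of assembly TAIR10.1, both on the plus strand, MLP328 at chr2:235992-236178 and MLP329 at chr2:239815-240001, with the differing bases in capitals.
MLP328: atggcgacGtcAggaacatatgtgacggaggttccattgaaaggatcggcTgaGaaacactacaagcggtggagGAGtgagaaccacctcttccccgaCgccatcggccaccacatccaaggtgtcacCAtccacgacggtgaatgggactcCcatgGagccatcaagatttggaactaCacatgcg
MLP329: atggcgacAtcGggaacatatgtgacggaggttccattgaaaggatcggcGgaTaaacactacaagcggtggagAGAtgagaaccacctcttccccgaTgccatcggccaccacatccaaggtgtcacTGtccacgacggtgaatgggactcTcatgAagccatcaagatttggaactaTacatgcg
The differences are spread along the exon, and the longest stretch without one in the whole coding sequence is 38 bases. Of the 31-base words within the coding exons of MLP328, 5.81% occur elsewhere in the 5 nuclear chromosomes, and of those of MLP329 2.02%. The closest relative of MLP328 in the family is not its neighbour but AT4G14060 on chromosome 4, with an identity of 91.2% over 456 bases. AT4G14060 had 0.0809 FPKM in wild type, 0.327 in phyA-1 and no call.

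The pair MLP28 and MLP34 is alike in the same degree, with 89.8% identity over 951 aligned bases and a longest identical stretch of 72 bases. The first coding exons, both on the minus strand, are MLP28 at chr1:26711152-26711395 and MLP34 at chr1:26716540-26716744 on TAIR10.1. They align over 205 bases, of which 23 differ, and capitals mark bases that differ or have no partner.
MLP28: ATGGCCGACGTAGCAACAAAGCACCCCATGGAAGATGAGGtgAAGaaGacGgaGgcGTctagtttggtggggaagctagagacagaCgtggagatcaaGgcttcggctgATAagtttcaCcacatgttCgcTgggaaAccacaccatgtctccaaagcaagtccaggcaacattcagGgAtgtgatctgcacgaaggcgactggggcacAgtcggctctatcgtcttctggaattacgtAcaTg
MLP34: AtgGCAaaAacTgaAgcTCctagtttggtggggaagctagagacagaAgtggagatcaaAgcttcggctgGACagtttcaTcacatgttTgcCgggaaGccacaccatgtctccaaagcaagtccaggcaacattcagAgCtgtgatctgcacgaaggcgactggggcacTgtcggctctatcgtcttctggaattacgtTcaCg
The longest annotated coding sequences of MLP28 and MLP34, 1008 and 951 bases, are about 2.18 and 2.06 times the median length of the other members. Split in the middle, the parts of MLP28 are 90.5% identical to each other over 483 aligned bases, and those of MLP34 85.8% over 465, so that each of these genes holds a repeated unit. Outside their own loci, 101 of the 918 31-base words of MLP28 and 102 of the 861 of MLP34 recur in the genome, the highest shares among the members.

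AT4G23670, which was not called, and AT4G23680, which fell, are 86.2% identical over 456 bases. Their first coding exons, on the minus strand at chr4:12333470-12333656 and chr4:12337231-12337417, differ at 19 of 187 bases, again in capitals.
AT4G23670: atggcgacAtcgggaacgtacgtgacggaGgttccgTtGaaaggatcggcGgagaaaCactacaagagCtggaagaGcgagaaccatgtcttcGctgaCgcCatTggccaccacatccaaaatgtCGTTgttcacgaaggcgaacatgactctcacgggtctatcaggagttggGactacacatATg
AT4G23680: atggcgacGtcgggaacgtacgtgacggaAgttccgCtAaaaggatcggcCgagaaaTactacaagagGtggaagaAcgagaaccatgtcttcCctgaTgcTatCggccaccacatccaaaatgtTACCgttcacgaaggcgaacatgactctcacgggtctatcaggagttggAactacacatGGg
Among the 45 pairs of members the identity of aligned coding bases ran from 58.3% to 89.8%, with a median of 63.8%, and 7 pairs reached 80%. With read length and the treatment of reads that match several places not given in the sources used here, how reads were divided among the copies was not tested. The reads came from Ler plants, while the assembly is that of the accession Columbia.

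**Figure D2:**
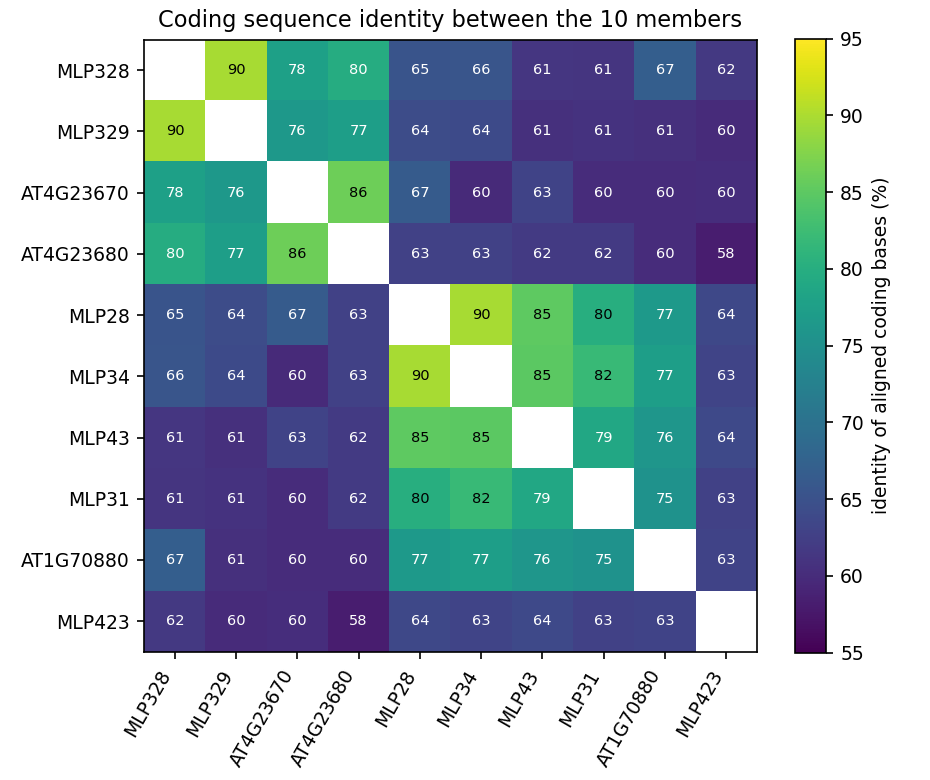
Identity of aligned coding bases, in percent, for each pair of the 10 members, rounded to whole percent in the cells and shaded from 55 to 95. High values fall within the chromosome 1 run, and within and between the pairs of chromosomes 2 and 4, while MLP423 stays at 63.8% or below with every other member.

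All 10 members share the place of the first coding intron within a codon, a trait that played no part in their choice. Their first coding intron lies after the first base of a codon in 10 of 10, and the coding sequence is split into 2 exons in 8, all but MLP28 and MLP34. The first coding exon is 187 bases long in 5 of the 10, MLP328, MLP329, MLP423, AT4G23670 and AT4G23680. Over the 29 genes of the family considered here, the intron has this phase in 27 of the 28 genes that have one.

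On chromosome 2 the 2 members lie in a run of 4596 bases on TAIR10, with no other protein-coding gene between them. MLP328 (AT2G01520, chromosome 2, 235925 to 237147) had 25.4 FPKM in wild type and 271 in phyA-1. The fold was 10.7, the log2 ratio of (FPKM + 1) was 3.37, and the authors' deposited table puts q at 0.00045. Among all tested genes ordered by this ratio it stood at place 18, and among the 14234 with a mean of at least 5 FPKM at place 17. MLP329 (AT2G01530, 239705 to 240520) had 167 FPKM in wild type and 368 in phyA-1, a fold of 2.20 and a log2 ratio of 1.13 (the authors' deposited table, q = 0.00045). MLP329 had the higher level of the pair in both genotypes, but its level was 6.58 times that of MLP328 in wild type and 1.36 times in phyA-1. MLP328 thus made up 13.2% of the pair's summed FPKM in wild type and 42.4% in phyA-1.

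On chromosome 1 a run of 16598 bases holds 5 members and, between them, the family genes AT1G70860 and AT1G70870, all read in the same direction. MLP34 (AT1G70850, 26714866 to 26716829) had 170 FPKM in wild type and 679 in phyA-1, a fold of 4.00 and a log2 ratio of 1.99. AT1G70880 (26722881 to 26723778) had 25.7 and 75.9 FPKM, a fold of 2.95 and a log2 ratio of 1.52. MLP43 (AT1G70890, 26725626 to 26726544), a gene linked in Arabidopsis to abscisic acid signalling under drought, had 247 and 399 FPKM, a log2 ratio of 0.69. The q-value of each of these 3 was 0.00045 in the authors' deposited table.

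The other 2 members of this run were not called. MLP28 (AT1G70830, 26709947 to 26711462) had 1008 FPKM in wild type and 1266 in phyA-1, a log2 ratio of 0.33 (the authors' deposited table, q = 0.269). MLP31 (AT1G70840, 26712982 to 26714066), which lies between MLP28 and MLP34, had 0.963 and 0.662 FPKM, the lowest level of the 10 in both genotypes (the authors' deposited table, q = 0.471). The run's summed FPKM was 1451.5 in wild type and 2420 in phyA-1, a ratio of 1.67. MLP28 had 5.94 times the FPKM of MLP34 in wild type and 1.86 times in phyA-1.

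**Figure D3:**
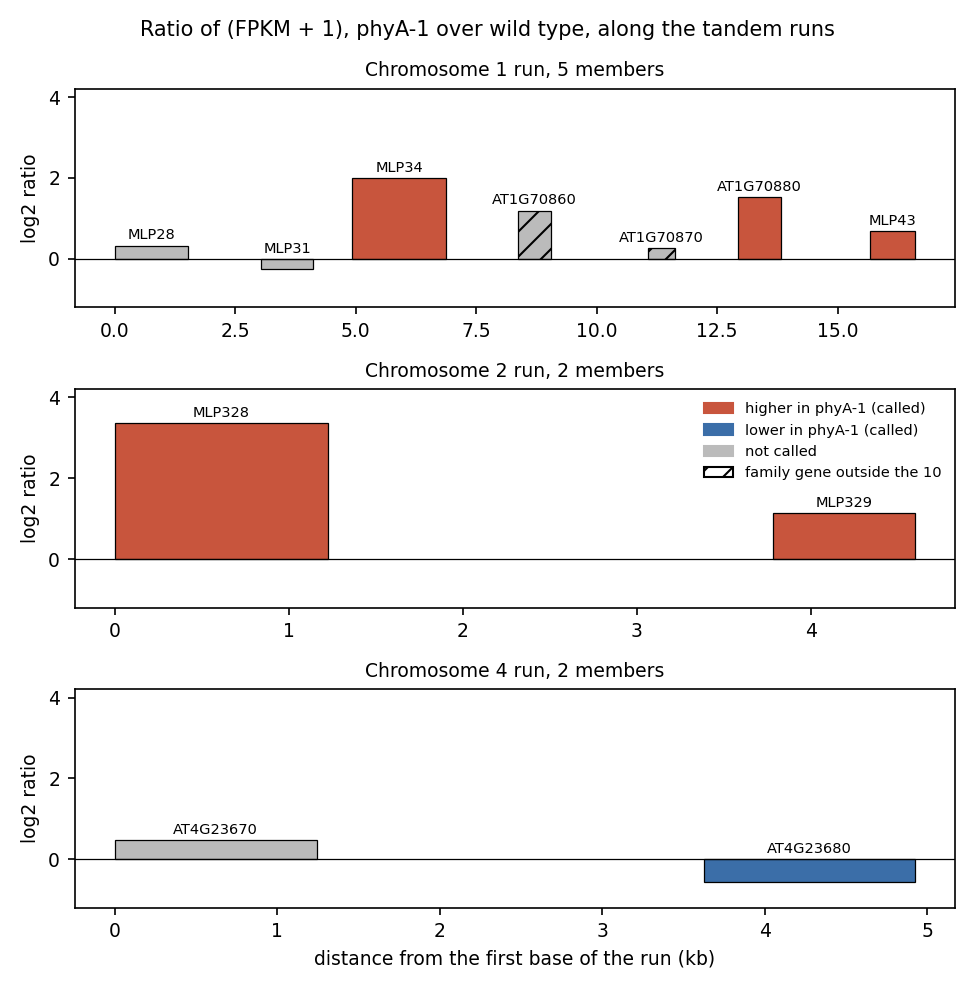
Log2 ratio of (FPKM + 1), phyA-1 over wild type (bar height), for the family genes of the 3 tandem runs, placed by distance in kb from the first base of the run, each bar as wide as the gene's locus in the deposited table. Red bars were called higher, the blue bar of AT4G23680 was called lower, grey bars were not called and hatched bars are family genes outside the 10. MLP328 at 3.37 stands above MLP329 at 1.13, and MLP31 at -0.24 lies next to MLP34 at 1.99.

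On chromosome 4 the 2 members lie within 4923 bases. AT4G23670 (12332560 to 12333804) had the highest level of the 10 in both genotypes, 1999 FPKM in wild type and 2760 in phyA-1, a log2 ratio of 0.47. It was not called, since the authors' deposited table gives q = 0.121, with an unadjusted p of 0.038. AT4G23680 (12336186 to 12337482) had 289 FPKM in wild type and 196 in phyA-1, a log2 ratio of -0.56 (the authors' deposited table, q = 0.0012). AT4G23670 had 6.91 times the level of AT4G23680 in wild type and 14.1 times in phyA-1.

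MLP423 (AT1G24020, chromosome 1, 8500400 to 8502065) stands apart from the runs and had the next lowest level after MLP31. It had 5.05 FPKM in wild type and 1.94 in phyA-1, a log2 ratio of -1.04 (the authors' deposited table, q = 0.00045). The pseudocount of 1 holds back the ratio of a gene at this level, and the fold of the FPKM values, wild type over phyA-1, was 2.60. None of its 31-base coding words was found elsewhere in the nuclear chromosomes.

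The order of levels in wild type ran from AT4G23670 through MLP28, AT4G23680, MLP43, MLP34, MLP329, AT1G70880, MLP328 and MLP423 to MLP31. In phyA-1 MLP34 stood at place 3 rather than 5 and MLP328 at place 6 rather than 8, while AT4G23680 stood at place 7 rather than 3. MLP34 and MLP329, at 170 and 167 FPKM in wild type, and AT1G70880 and MLP328, at 25.7 and 25.4, were close enough that without a spread their order cannot be judged. The summed FPKM of the 10 was 3938 in wild type and 6018 in phyA-1, a ratio of 1.53, and AT4G23670 and MLP28 together gave most of it in both. AT4G23670 alone made up 50.8% of the sum in wild type and 45.9% in phyA-1, and MLP328 0.644% and 4.51%. The median log2 ratio of the 10 was 0.58, beside 0.05 over all tested genes. In whole seedlings, more cells of a type and more RNA per cell cannot be told apart.

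**Figure D4:**
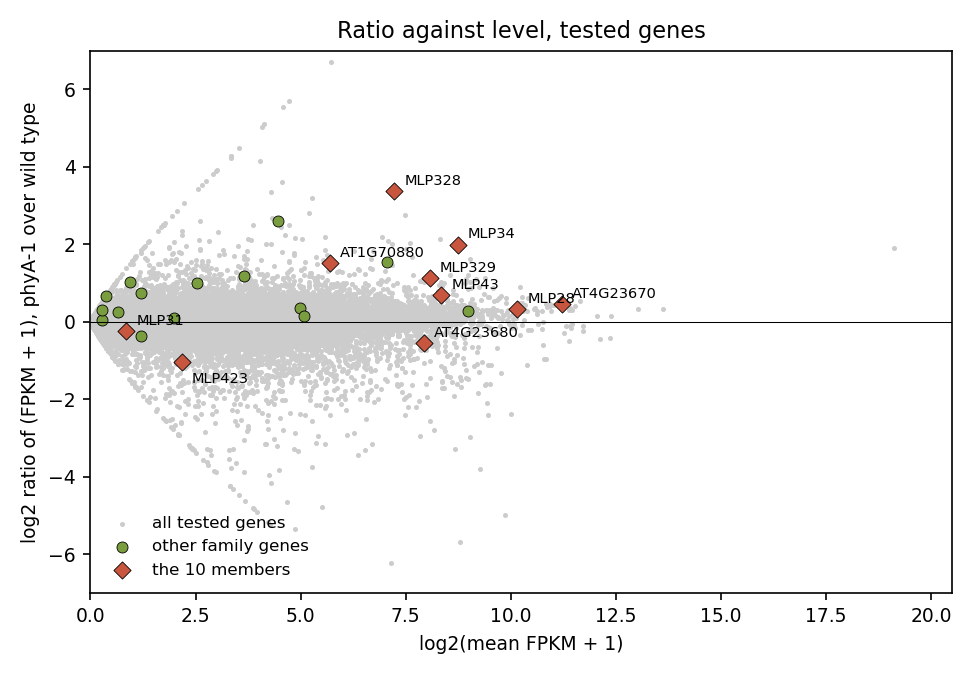
Log2 ratio of (FPKM + 1), phyA-1 over wild type (vertical axis), against log2(mean FPKM + 1) (horizontal axis) for the 22892 tested genes (grey), the 15 tested family genes outside the 10 (green circles) and the 10 members (red diamonds). MLP328 lies at 3.37, MLP34 at 1.99, and the members of highest level, MLP28 and AT4G23670, at 0.33 and 0.47.

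Of 19 further genes of the family, 15 were tested by the authors, and 4 of them rose, none fell and 11 were not called, beside 8.61% of all tested genes called higher and 8.54% lower. AT1G14960 (chromosome 1, 5159199 to 5160083) had 5.21 FPKM in wild type and 37.0 in phyA-1, a fold of 7.10 and a log2 ratio of 2.61 (the authors' deposited table, q = 0.00045). AT3G26460 (chromosome 3, 9683873 to 9684657) had 66.7 and 198 FPKM, a log2 ratio of 1.55 at the same q-value of the authors' deposited table. AT5G28010 had 2.88 and 6.72 FPKM (log2 ratio 0.99), and AT1G14950 had 0.254 and 1.57 FPKM (1.04). At an unadjusted p under 0.05, 7 of the 15 passed in the authors' deposited table, which names no tool for its test, beside 25.7% of all tested genes. The median log2 ratio of the 15 was 0.35, and 14 of the 15 ratios lay above 0, beside 59.0% of all tested genes. Of the 10 members, 7 had a ratio above 0. Some of the 15 had low levels, with means of 0.204 FPKM for AT4G14060 and 0.913 for AT1G14950, where a sign says little.

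AT3G26450, the tandem neighbour of AT3G26460, had 458 FPKM in wild type and 551 in phyA-1, a log2 ratio of 0.27 that was not called. Those coding sequences are 92.6% identical over 459 bases, with a longest identical stretch of 79 bases. In the chromosome 1 run, AT1G70860 had 6.64 and 16.5 FPKM, a log2 ratio of 1.19, and no call (the authors' deposited table, q = 0.0815).

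Among the 14 PYR/PYL receptors of abscisic acid, which share the Bet v 1 fold, 10 were tested, 2 fell and none rose, beside 8.54% of all tested genes lower and 8.61% higher, with a median log2 ratio of -0.04. PYL2 had 8.49 FPKM in wild type and 2.96 in phyA-1 (log2 ratio -1.26), and PYL4 46.5 and 27.6 FPKM (-0.73). At an unadjusted p under 0.05, 3 of the 10 passed in the authors' deposited table, a share near the 25.7% of all tested genes. PYR1, the receptor gene with the highest level, had 94.8 and 98.9 FPKM and was not called.

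Markers of root tissues were set beside these values. Of 12, all tested and none listed at 0, EXPA18, an expansin of root hairs, rose (20.9 FPKM in wild type, 28.3 in phyA-1) and 11 were not called. That is 8.33% higher, beside 8.61% of all tested genes. Their summed FPKM was 503 in wild type and 542 in phyA-1, and their log2 ratios ran from -0.25 to 0.42. CASP1, a gene of the endodermal Casparian strip, had 294 FPKM in wild type and 333 in phyA-1, most of the sum in both. Its locus overlaps that of another gene, AT2G36090.

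**Figure D5:**
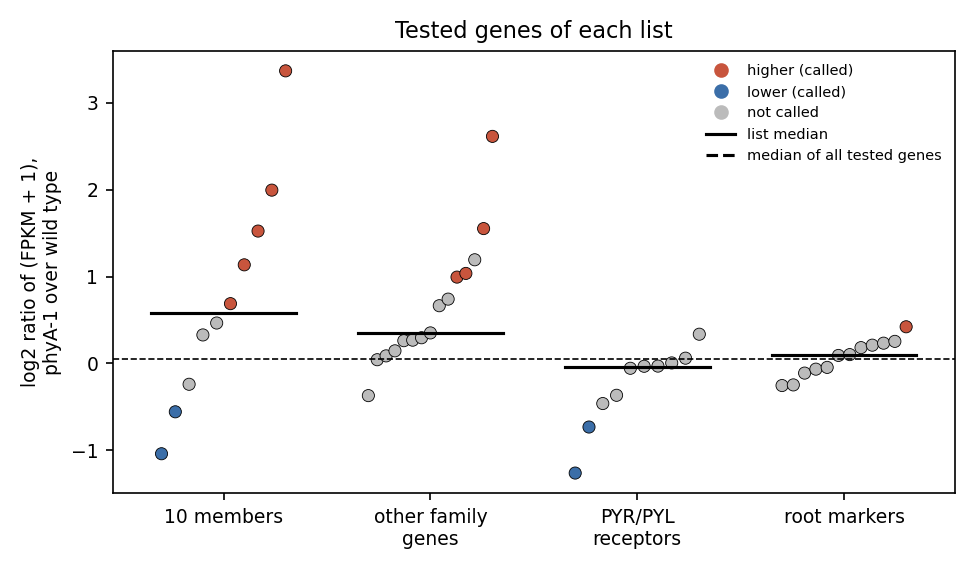
Log2 ratio of (FPKM + 1), phyA-1 over wild type, for each tested gene of 4 lists, ordered within a list, coloured red where called higher, blue where called lower and grey where not called. Solid bars are list medians (0.58 for the 10 members, 0.35 for the other family genes, -0.04 for PYR/PYL receptors and 0.10 for root markers), and the dashed line is the median of all tested genes, 0.05.

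The 250 bases before the annotated starts of MLP328 and MLP329 were read from TAIR10.1 because both genes of the pair rose. They are shown 5′ to 3′ on the plus strand, MLP328 at chr2:235675-235924 and MLP329 at chr2:239419-239668, with motif matches in capitals, ACGTG in both and GATAAG, or CTTATC on the other strand, in MLP329.
MLP328: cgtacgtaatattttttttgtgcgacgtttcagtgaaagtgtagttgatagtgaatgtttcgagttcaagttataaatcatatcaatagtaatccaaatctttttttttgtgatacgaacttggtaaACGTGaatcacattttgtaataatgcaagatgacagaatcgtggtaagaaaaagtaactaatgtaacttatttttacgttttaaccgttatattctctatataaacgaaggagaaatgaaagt
MLP329: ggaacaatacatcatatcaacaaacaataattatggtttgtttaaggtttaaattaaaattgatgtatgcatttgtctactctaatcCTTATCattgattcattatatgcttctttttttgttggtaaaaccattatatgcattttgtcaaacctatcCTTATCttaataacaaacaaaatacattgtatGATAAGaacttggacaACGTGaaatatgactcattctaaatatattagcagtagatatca
In MLP328 the match to ACGTG starts 123 bases before the gene, and in MLP329 44 bases before it. Over the 10 members, ACGTG on either strand was found in 5, MLP328, MLP329, MLP28, AT4G23670 and AT4G23680, of which 2 rose, 1 fell and 2 were not called. Of 27443 promoters of protein-coding genes cut to the same length, 22.9% hold it, and so do 9 of those of the 19 further family genes. CACGTG, the G-box, which contains ACGTG, was in none of the 10, in none of the 19 and in 6.49% of all promoters.

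GATAAG was in MLP329 and MLP43 (12.3% of all promoters), with 3 matches each. CACATG, an E-box bound by PIF factors, and AAATATCT, the evening element, were each found in 1 of the 10, MLP43 (11.1% and 4.79%), and TGTCTC, the auxin response element, in 1, MLP31 (10.9%). CACGCGC, an element bound by FHY3 and FAR1, was in none (1.06%). In windows of 1000 bases ACGTG was found in 8 of the 10 (54.4% of all promoters), GATAAG in 7 (40.6%), CACATG in 3, MLP28, MLP34 and MLP43 (37.7%), TGTCTC in 3 (39.6%) and AAATATCT in 2 (15.3%). CACGTG and CACGCGC were in none of the 10 there (14.8% and 2.54%). Of the 19 further family genes, 15 held ACGTG, 12 CACATG, 8 GATAAG, 7 TGTCTC, 4 AAATATCT, 3 CACGTG and none CACGCGC in these windows.

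By distance in the plane of log2(FPKM + 1) of both genotypes, 2 pooled values per gene, the 5 genes outside the family nearest to MLP328 were AIR1, SEN1, SDR4, MGL and AT2G16005. AIR1, of the hybrid proline-rich proteins, lay at a distance of 0.83 with 45.2 FPKM in wild type and 312 in phyA-1. SEN1, a dark-inducible gene, lay at 0.87 with 43.7 and 201 FPKM. SDR4, MGL, which encodes methionine gamma-lyase, and AT2G16005, which encodes a protein with a lipid recognition domain, lay at 1.02 to 1.14. The choice by closeness in both genotypes fixes that each is higher in phyA-1, so their calls add nothing.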

How the data were processed

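The submitters' processing notes name Bowtie and the build TAIR10, with the tools for levels and test not given in the sources used here. Columns of the deposited table, which lacks a header, were identified from order and values. The authors deposited 1 FPKM value per gene and genotype, pooled over 3 libraries. Beside it they deposited a log2 ratio (wild type over phyA-1), the score of a test, its p-value and a q-value. Depth per library is unknown, so no interval could be given, and the lowest deposited p-value, 5e-05, is shared by 1668 genes. The table's yes or no column follows a q-value of 0.05 in all 22892 tested genes. Deposited log2 ratios lay within 0.001 of those recomputed from FPKM in 99.97% of tested genes where finite.

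Ratios here are phyA-1 over wild type, log2((FPKM + 1) ratio), with a pseudocount of 1 (pandas 2.3.3, numpy 2.4.6). Calls are the authors'. Members and lists were chosen with earlier results of these data known. The named genes are the members, the called genes of each list or, with none called, its highest, called neighbours, PHYA and the 5 genes nearest to MLP328. AT4G14060, AT3G26450, AT1G70860, CASP1, PYR1, AT2G01510 and AT2G01540 were named after their values were seen. Expression coordinates are those of the table, written 1-based. Sequences and gene models come from RefSeq on TAIR10.1, with which 50.2% of 32810 matched genes share a start or an end. Coding sequences, the longest per gene, were aligned in pairs with free end gaps (Biopython 1.88). Adjustment and alignment were checked on simulated data. Protein sequences were not used here.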

Additional observations from a re-analysis of the deposited data

How the results depend on the processing

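The direction of all 10 members' ratios was the same with FPKM scaled to the sum without the highest gene. It was also the same with ratios centred on genes of at least 5 FPKM. Pseudocounts of 0.1 and 5, or none, change the size of a ratio but cannot change its direction. The median log2 ratio of the 10 was 0.58 with a pseudocount of 0.1, 0.57 with 5, 0.54 after scaling without the highest gene and 0.50 after centring. Without MLP328 the ratio of summed FPKM was 1.47. At a mean of at least 5 FPKM, 5 members were higher and 1 was lower, since MLP423 lies under that level. Of the further family genes, 2 were higher there. Over all 14234 tested genes at that level, 1492 were higher and 1505 lower. The counts of 5 members higher and 2 lower were the same at a q-value of 0.01 and under Benjamini-Hochberg adjustment over all tested genes. They were also the same with loci that hold no other gene and at a mean of at least 1 FPKM. This sameness says little. The called members had q-values of 0.00045 or 0.0012 in the authors' deposited table, and none of their loci overlaps another gene. The lowest mean among them, that of MLP423, was 3.49 FPKM. Over all genes, 1144 were higher and 1492 lower at a q-value of 0.01, beside 1971 and 1955 at 0.05. Under Benjamini-Hochberg adjustment 1715 were higher and 1835 lower. At a mean of at least 1 FPKM there were 1874 and 1841, and with loci that hold no other gene 1840 and 1688. The alternatives for the further family genes and the PYR/PYL receptors were chosen after seeing the data. No paired analysis was possible because the table gives 1 pooled value per genotype, and for the same reason no library could be left out. The spread between libraries, and so the precision of any single level, is not known here.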

Other observations

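The genes beside the runs were looked at as well, 3 protein-coding genes on each side of each run or single member. Of 24, 2 belong to the family and were not tested by the authors, and of the other 22, 19 were tested. None of the 19 rose, 2 fell and 17 were not called, beside 8.61% of all tested genes higher and 8.54% lower. In the authors' deposited table, 5 of the 19 had an unadjusted p under 0.05, a share near the 25.7% of all tested genes. Their log2 ratios ran from -0.68 to 0.35, with a median of 0.02. AT1G70820, annotated as a putative phosphoglucomutase and next to MLP28, had 1.15 FPKM in wild type and 0.346 in phyA-1. CHX17, a cation/H+ exchanger gene beyond AT4G23680, had 38.8 FPKM in wild type and 25.7 in phyA-1. In the authors' deposited table the larger of their q-values is 0.00084. On either side of the MLP328 and MLP329 run, AT2G01510 had 0.570 FPKM in wild type and 0.488 in phyA-1 and AT2G01540 had 30.9 and 39.6, neither called.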
